A study of Homo sapiens with 10 samples.

Results

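A group of 315 HER2 binding sites recurred across both breast cancer cell lines and both treatments of SKBR3 cells. They were chosen by position among the 2520 HER2 peaks of EGF-treated SKBR3 cells, as those that overlapped by at least 1 bp a peak of vehicle-treated SKBR3 cells and a peak of EGF-treated BT474 cells. Of the remaining SKBR3 EGF peaks, 1820 overlapped a BT474 EGF peak but no SKBR3 vehicle peak, 20 overlapped a SKBR3 vehicle peak but no BT474 EGF peak, and 365 overlapped neither. SKBR3 and BT474 are established human breast cancer lines with an amplified ERBB2 gene, which encodes HER2, and BT474 also expresses the progesterone receptor. Asynchronous cells, kept in serum, received vehicle (H2O) or EGF at 100 ng/ml for 3 hours, and HER2 was mapped by ChIP-exo, in which an exonuclease trims the precipitated DNA. There was 1 peak list for each of the 4 conditions and no replicate, and the antibody lots of the 2 lines differed, so line and lot cannot be told apart. Monomethylated lysine 4 of histone H3 (H3K4me1) was mapped by ChIP-seq in 2 replicates per line, labelled as asynchronous cells, whereas the study's text calls them EGF-treated.

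HER2 is a receptor tyrosine kinase of the cell surface that has no known ligand of its own and signals as a partner of EGFR or other family members. EGF binds EGFR and brings it together with HER2. Full-length HER2 has also been found in the nucleus, where it has no known DNA-binding domain. H3K4me1 marks enhancers, the distal elements that raise transcription of their target genes.

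The lists held 2520 peaks for SKBR3 EGF, 2596 for SKBR3 vehicle, 29326 for BT474 EGF and 8559 for BT474 vehicle. They gave a score without its scale and no read counts, so the depth behind a HER2 peak is unknown and scores were compared only as ranks within a list. The H3K4me1 libraries held 15.1 to 18.7 (in units of 1e+06) reads inside islands. Islands covered 97.2% or more of ERBB2 and all of GRB7, its neighbour in the amplified region, in every library. PGR, which encodes the progesterone receptor, was covered over 88.6% and 86.6% of its length in the BT474 replicates and over 2.4% and 3.54% in those of SKBR3. GATA3, which encodes a luminal transcription factor, lay outside every island in both SKBR3 libraries and was covered over 55.9% and 53.2% in BT474. FOXA1, another, was at 0% in both SKBR3 libraries and BT474 replicate 1 and at 25.3% in BT474 replicate 2. KRT8, a luminal keratin, was covered over 61.8 to 67.5% in all 4 libraries. KRT18, another, was covered over 17.1% and 0% in the SKBR3 replicates and over 51.8% and 61.7% in those of BT474. ESR1, the oestrogen receptor gene, was at 19.7% and 18.8% in SKBR3 and at 26.3% and 27.3% in BT474.

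Among the 315 sites, 70 held the core CGTNTGC in the peak, 103 others were of low complexity, such as simple repeats, and 142 had neither. Pyrimidine-rich low-complexity sequence is shown by 2 of the highest-ranking sites, each in 120 bases around the peak midpoint on GRCh37 and on the pyrimidine-richer strand, with the longest run of only C and T in capitals. They lay at chr10:98561300-98561419 on the minus strand, in intergenic sequence nearest to MIR607, and at chr2:62957831-62957950 on the minus strand, within an intron of EHBP1.
MIR607: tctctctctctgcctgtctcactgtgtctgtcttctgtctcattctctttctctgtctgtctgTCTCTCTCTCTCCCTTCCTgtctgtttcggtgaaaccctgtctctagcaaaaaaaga
EHBP1: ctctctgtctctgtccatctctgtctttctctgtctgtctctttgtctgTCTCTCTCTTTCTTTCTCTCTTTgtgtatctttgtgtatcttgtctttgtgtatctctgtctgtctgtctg

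The core is shown by 5 sites that hold the core, in capitals, read on the strand on which it is spelled CGTNTGC. They are GRM8 at chr7:126082328-126082447 on the plus strand, KCNMA1 at chr10:79379013-79379132 on the plus strand, BBS9 at chr7:33580657-33580776 on the plus strand, PDE7B-AS1 at chr6:136365151-136365270 on the plus strand and P4HA1 at chr10:74772322-74772441 on the minus strand. The GRM8 window was moved 20 bases towards its core. The PDE7B-AS1 site lay in an exon of this antisense RNA and the other 4 in introns.
GRM8: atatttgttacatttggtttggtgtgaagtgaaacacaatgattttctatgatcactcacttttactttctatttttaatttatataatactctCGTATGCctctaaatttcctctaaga
KCNMA1: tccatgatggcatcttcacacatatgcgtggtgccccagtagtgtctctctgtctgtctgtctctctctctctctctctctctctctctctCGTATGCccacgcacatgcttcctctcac
BBS9: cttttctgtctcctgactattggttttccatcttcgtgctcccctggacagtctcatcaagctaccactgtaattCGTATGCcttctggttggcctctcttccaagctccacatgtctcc
PDE7B-AS1: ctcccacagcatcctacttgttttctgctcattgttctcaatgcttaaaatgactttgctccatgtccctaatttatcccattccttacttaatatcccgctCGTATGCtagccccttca
P4HA1: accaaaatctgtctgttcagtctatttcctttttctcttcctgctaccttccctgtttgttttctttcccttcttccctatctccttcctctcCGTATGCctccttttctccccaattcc

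A further high-ranking site held the last 6 bases of the core without its start. It was counted among the sites with neither a core nor low complexity. This site lay at chr5:37110112-37110231 on the plus strand, within an intron of CPLANE1. The 6 bases are in capitals and are followed by cgtcttctg.
CPLANE1: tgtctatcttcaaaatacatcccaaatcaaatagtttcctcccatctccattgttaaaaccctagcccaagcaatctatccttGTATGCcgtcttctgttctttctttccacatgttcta

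Low-complexity sequence was counted where 100 bases around the midpoint held at most 30 of the 64 possible 3-base words. This was so at 109 of 315 sites (34.6%, 95% interval 29.6 to 40.01%), against 18.4% of all SKBR3 EGF peaks, 16.1% (14.6 to 17.7%) of the 2205 peaks that were not kept and 18.0% (16.3 to 19.8%) of the 1820 that shared a BT474 EGF peak only. Of the 109, 6 also held a core in the peak. In windows 1 kb to either side of the sites the share was 1.75% (11 of 630). The intervals, by Wilson's method, take in counting error alone, and with 1 list per condition no test over samples was possible. The median number of distinct words was 37 at the sites, 41 at all SKBR3 EGF peaks and 44 in the windows.

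The composition of the central 100 bases was skewed towards purines on 1 strand and pyrimidines on the other. The richer of the 2 made up a median of 71.0% at the sites (95% interval 69.0 to 72.0%), 66.0% at all SKBR3 EGF peaks and 56.0% in the windows. Runs were searched over the whole peak, with a median width of 251 bp at the sites and 213 bp at the peaks not kept. An unbroken run of at least 20 purines or pyrimidines was found in 61 sites (19.4%). The share was 12.7% at the peaks that were not kept, which gave a shorter stretch to search, and 7.3% in windows as wide as the sites. The longest run at the sites, of 97 bases, was at the promoter of SNX16. The GC content differed little, with a median of 43.6% at the sites, 43.4% at all SKBR3 EGF peaks and 41.6% in the windows.

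**Figure D1:**
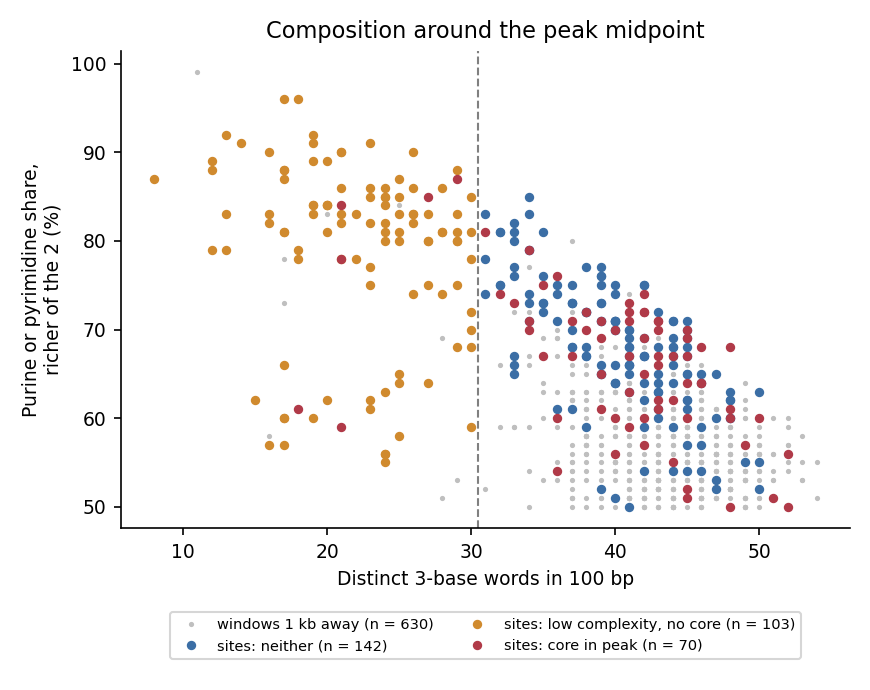
Each point is 1 kept site, or a grey window 1 kb away, placed by the distinct 3-base words in its central 100 bp (x axis) and by the share of purines or pyrimidines, whichever is higher, in percent (y axis). Colours give the 103 sites of low complexity without a core, the 70 with a core in the peak and the 142 with neither, and the dashed line marks the limit of 30 words. The sites have a median of 71.0% on the y axis and the windows one of 56.0%.

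The words that recurred most often beyond the windows were ranked after the sequences were seen, so their counts are a description. The 8-base word GAGACAGA, or TCTGTCTC on the other strand, stood within 50 bp of the midpoint at 80 sites (25.4%), in 2.54% of windows and at 10.9% of the peaks that were not kept. The simple repeat GAGAGAGA was found at 70 sites (22.2%), in 1.59% of windows and at 11.0% of the other peaks. Among 6-base words, ACGAGA was found at 64 sites (20.3%) and GCATAC at 56 (17.8%), against 1.11% and 2.38% of windows. These 2 words were about as frequent among the peaks that were not kept, at 18.4% and 17.4%.

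The core CGTNTGC, where N is any base, was searched on both strands. It stood within 50 bp of the midpoint at 51 sites (16.2%, 12.5 to 20.7%), against 11.9% of all SKBR3 EGF peaks, 11.3% (10.1 to 12.7%) of the peaks that were not kept, 13.0% (11.5 to 14.6%) of the 1820 peaks that shared a BT474 EGF peak only, and 0.794% of windows. The intervals of the sites and of these 1820 peaks overlapped. Over the whole peak it was found in 70 sites (22.2%), against 15.9% of all SKBR3 EGF peaks and 4.29% of windows of the same width. Around the midpoint of the BT474 EGF partner the share was 10.16%, lower by more than 1.5 times. The window had to hold the whole core. By distance from the midpoint, 44 of the 73 cores in the sites lay within 50 bp in BT474 EGF and 53 in SKBR3 EGF.

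Aligned on their 73 cores, the sites shared more than the 7 bases of the search. The open position was A in 67.1% of cores, the base before the core was T in 75.3% and the base after it was C in 60.3%. The most frequent bases read CTCGTATGCC over the core and its nearest neighbours, and the 353 cores of peaks shared with BT474 EGF alone gave the same letters. Pyrimidines made up 71.8% of the 20 bases on either side. The P7 primer of Illumina libraries holds these letters on 1 strand. Whether primer sequence had a part in these peaks, or at the CPLANE1 site with GTATGC followed by cgtcttctg, was not tested.

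The core did not sit at the centre of the peaks. Along the strand on which it reads CGTNTGC, the SKBR3 EGF midpoint lay upstream of 51 of 73 cores (69.9%), at a median of 21 bases before it. The BT474 EGF midpoint lay upstream of 66 of 73 (90.4%), at a median of 46 bases. The same side was taken in SKBR3 vehicle, with 59 of 73 cores and a median of 39 bases, and in BT474 vehicle, with 59 of 66 and a median of 42 bases.

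**Figure D2:**
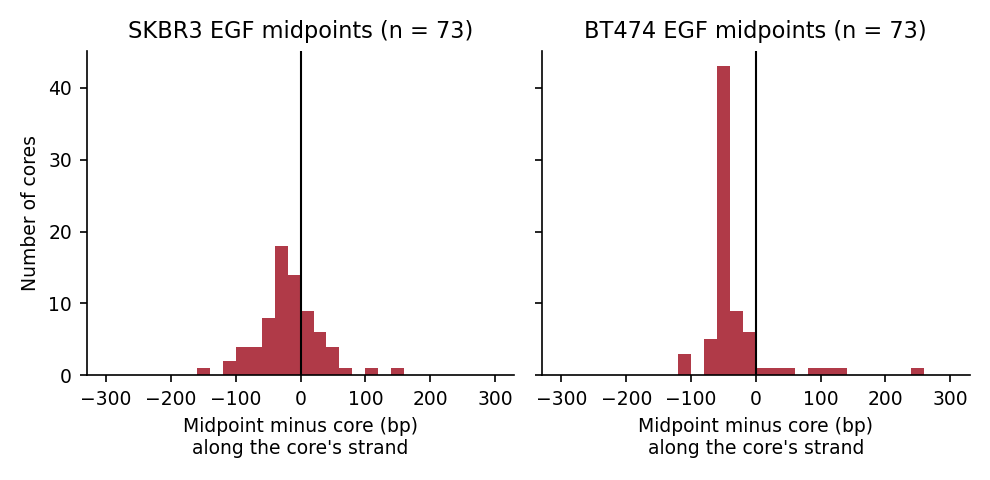
Histograms of the distance in bp from the core to the peak midpoint, along the strand of the core, for the 73 cores in the sites (x axis, in bins of 20 bp; y axis, number of cores). The left panel uses SKBR3 EGF midpoints and the right panel BT474 EGF midpoints, which crowd just upstream of the core around the median of -46 bp.

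Exact repeats in the genome were about as common at the sites as around them. A 32-base word present in 2 or more copies was found in 109 sites (34.6%), close to the 32.5% of all SKBR3 EGF peaks and the 34.0% of windows. They were found in 62 of the 103 low-complexity sites without a core (60.2%). Under 50% of the 32-base words were unique in 3 sites (0.952%, 95% interval 0.324 to 2.76%), against 2.86% of all SKBR3 EGF peaks. The 1820 peaks that shared a BT474 EGF peak only gave 2.80% (2.14 to 3.67%), with an interval that overlapped that of the sites. The 3 sites were at SNX16, XYLT1 and ENSG00000229002, a gene without a symbol, named here after their values were seen. At KCNMA1 the CT repeat before the core held a word with 19709 copies.

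The positions and scores of the sites in the HER2 lists are a description, because the sites were selected on them. Peaks of the different lists were nearly superimposed. The midpoint lay a median of 29 bp from that of the BT474 EGF partner, 38 bp from that of SKBR3 vehicle and 28 bp from that of BT474 vehicle. It was within 50 bp at 236 of 315 sites (74.9%), 203 of 315 (64.4%) and 182 of 243 (74.9%), respectively. Every site had 1 BT474 EGF partner, and 3 sites had 2 SKBR3 vehicle partners.

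Most overlaps were far from the limit of 1 bp. All 315 sites overlapped their BT474 EGF partner by more than 100 bp, and 307 did so for SKBR3 vehicle. The smallest overlap with SKBR3 vehicle was 21 bp, at RAB37, followed by 36 bp at MYT1L. Just outside, the peak nearest to WNT2B missed a SKBR3 vehicle peak by 3 bp and that at KCNJ6 by 43 bp. Only 7 of the 1820 peaks came within 200 bp of a SKBR3 vehicle peak without overlapping it.

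The sites ranked above the middle of each list at the median. The median score percentile, where 100 is the top of a list, was 96.4 in BT474 EGF (quartiles 90.3 and 98.7), 70.8 in SKBR3 EGF (44.1 and 88.1), 59.96 in SKBR3 vehicle (29.1 and 85.0) and 84.7 in BT474 vehicle (65.3 and 95.2, n = 243). The 1820 peaks shared with BT474 EGF but absent from SKBR3 vehicle had medians of 88.5 in BT474 EGF and 49.9 in SKBR3 EGF. Percentiles are not comparable between lists of such different length, and any SKBR3 EGF peak with a BT474 EGF partner had a median of 90.5 in that list. By rank, the sites had medians of 733 in SKBR3 EGF, 1027 in SKBR3 vehicle, 1057 in BT474 EGF and 1307 in BT474 vehicle. Of the top 100 peaks, 29 were kept sites in SKBR3 EGF, 29 in SKBR3 vehicle, 29 in BT474 EGF and 27 in BT474 vehicle. A low rank was no bar, since 131 sites (41.6%) were in the part below the middle of the SKBR3 vehicle list. The sites were also wider than all SKBR3 EGF peaks, with median widths of 251 and 217 bp.

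**Figure D3:**
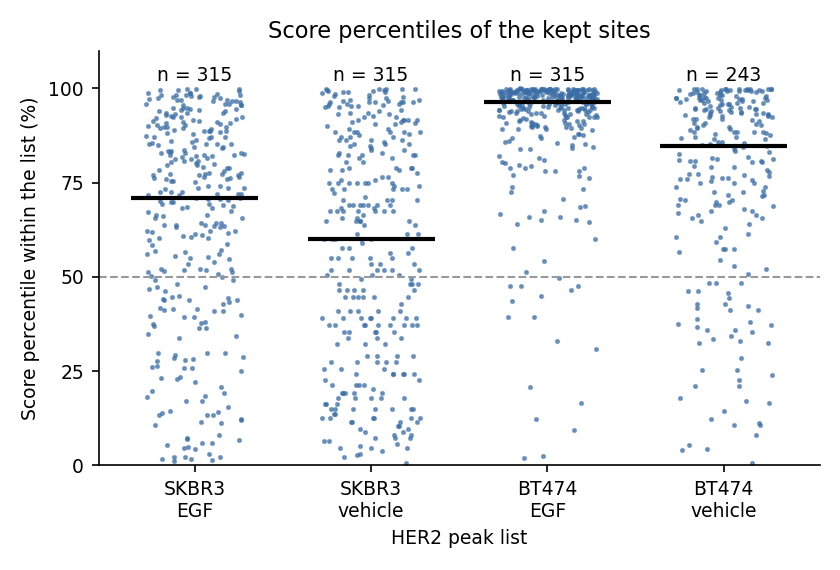
Each point is 1 kept site, the y axis its score percentile in percent within the HER2 list named on the x axis, and the black bar the median; the dashed line is the middle of a list. The medians are 96.4 in BT474 EGF, the longest list with 29326 peaks, and 59.96 in SKBR3 vehicle, with 2596.

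The order of the sites was shared mostly between the 2 BT474 lists. Across sites, Spearman's correlation of the percentiles was 0.718 between BT474 EGF and BT474 vehicle (n = 243). It was 0.192 between SKBR3 EGF and SKBR3 vehicle and 0.261 between SKBR3 EGF and BT474 EGF (n = 315 each). Sites are not independent replicates, and the lists of 1 line share the line and its antibody lots, so these values carry no test.

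A small set of sites led every list. The MAN1A1 site, in the gene of a Golgi mannosidase that trims N-glycans, ranked first in SKBR3 EGF (score 58931) and in SKBR3 vehicle (1961.5). It ranked second in BT474 EGF (4451.5) and in BT474 vehicle (2219). The site nearest to MIR607, 27.1 kb away (chr10:98561168-98561551), ranked 2, 3, 6 and 4 in SKBR3 EGF, SKBR3 vehicle, BT474 EGF and BT474 vehicle. A site 1.46 kb from the pseudogene ENSG00000278106 (chr21:11115893-11116658) ranked 9, 7, 5 and 9 in the same order. These 3 sites were near the top of all 4 lists, and the last 2 were of low complexity at their centre.

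The other leading sites held their rank less evenly. CPLANE1 (chr5:37110028-37110315), needed for the building of cilia, ranked 45 in SKBR3 EGF but 8, 8 and 7 in SKBR3 vehicle, BT474 EGF and BT474 vehicle. EHBP1 (chr2:62957724-62958058), which links endocytic vesicles to actin, ranked 4 in SKBR3 EGF and 84, 128 and 63 in the others. PELATON, a long non-coding RNA (chr20:48876073-48876444), ranked 75, 39, 48 and 2078, so that it fell far down the BT474 vehicle list only. PSMG3-AS1, an antisense RNA, did likewise with 29, 122, 66 and 2871.

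Among the same 12 leading sites were introns of channel, receptor and transporter genes. GRM8, a metabotropic glutamate receptor, ranked 52, 33, 778 and 824. KCNMA1, a calcium-activated potassium channel, ranked 63, 122, 718 and 334. SLC7A13, an amino acid transporter, ranked 47, 81, 141 and 87, and the site 3.45 kb from the pseudogene MROH4P ranked 20, 21, 37 and 599. RELA, the p65 subunit of NF-kappaB, held the only coding exon of the 12 (chr11:65425628-65425993) and ranked 215, 26, 327 and 6.

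Of the 315 sites, 243 (77.1%, 72.2 to 81.4%) also overlapped a peak of BT474 vehicle, against 62.2% of all SKBR3 EGF peaks and 71.6% (69.5 to 73.6%) of the 1820 peaks that shared a BT474 EGF peak only. The intervals of the sites and of these 1820 peaks overlapped. Here BT474 vehicle was not part of the rule, but its list shares the line of the BT474 EGF list. The share was 85.4% without the low-complexity sites. The 72 sites absent from BT474 vehicle had lower median percentiles, of 55.7 in SKBR3 EGF and 83.0 in BT474 EGF, compared with 75.5 and 97.7 for the 243.

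Core and low-complexity sites were spread unevenly over that split. A core was in the peak of 63 of the 243 sites (25.9%) and 7 of the 72 (9.72%). Low-complexity sequence without a core made up 62 of the 243 (25.5%) and 41 of the 72 (56.9%). Put the other way, 90% of core sites (80.8 to 95.1%), 60.2% of low-complexity sites (50.5 to 69.1%) and 83.1% of sites with neither (76.1 to 88.4%) were in BT474 vehicle. Core sites also had the highest median percentile in SKBR3 vehicle, 74.6, against 49.4 for low-complexity sites and 59.96 for the rest.

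By position in genes the sites resembled the list they came from. An intron held 176 sites (55.9%), against 53.2% of all SKBR3 EGF peaks, and 112 (35.6%) were intergenic, against 37.3%. A promoter, taken as the 1 kb before the start of any annotated transcript, held 12 sites (3.81%), against 4.96%. An exon held 15 (4.76%), against 4.48%. The promoter share was 1.90% for protein-coding genes alone and 6.67% with 2 kb. The median distance to the nearest start site was 21.6 kb, compared with 19.8 kb for all SKBR3 EGF peaks.

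Promoter and exon sites of protein-coding genes are given for the 8 with the highest mean percentile. RELA came first, followed by the promoter of SNX16, a sorting nexin of endosomes, with ranks of 14, 4, 2976 and 926 in SKBR3 EGF, SKBR3 vehicle, BT474 EGF and BT474 vehicle. The untranslated exon of TSN (chr2:122513689-122514064), encoding the nucleic acid-binding protein translin, ranked 226, 786, 377 and 533. An exon of a non-coding transcript of PRDX6 (chr1:173450904-173451159), an antioxidant enzyme, ranked 748, 212, 894 and 894. The promoter of ACTN2 (chr1:236849176-236849452), an actin crosslinker, ranked 782, 452, 372 and 2237. The SNX16 and ACTN2 promoter sites lay inside the gene, before the start of an internal transcript.

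The last 3 of these 8 were at RBM25 and SLC16A1. RBM25, a splicing regulator, had a site with a core in the promoter of an internal transcript (chr14:73572577-73572805). It had another, of low complexity, 2.63 kb away in a coding exon (chr14:73569956-73570155). They ranked 643 and 485 in BT474 EGF. A coding exon of SLC16A1 (chr1:113456476-113456707), a lactate transporter, held a core and ranked 138 in SKBR3 EGF, 1559 in SKBR3 vehicle and 2226 in BT474 EGF, with no peak in BT474 vehicle.

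The bodies of 149 protein-coding genes held 151 sites (47.9%), a share close to the 46.55% of all SKBR3 EGF peaks. Among these genes, 8 held 2 sites each. Sites of 1 gene were kilobases apart, from 2.63 kb in RBM25 to 415 kb in CDH18. The others were ADARB2, a brain member of the RNA-editing ADAR family, GPHN, the synaptic scaffold gephyrin, PDE1C, a calmodulin-dependent phosphodiesterase, SPATA16, a spermatogenesis gene, SLC35F4, a solute carrier, and CDH4. In SKBR3 EGF, CDH4 held 12 peaks in all, ADARB2, CDH18 and GPHN 4 each, SLC35F4 3, and PDE1C, RBM25 and SPATA16 2 each.

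Genes of HER2 signalling itself rarely held a site, and rarely held any SKBR3 EGF peak. Only midpoints inside a gene were counted, so intergenic sites did not enter. The intergenic site at chr7:55051751-55051961 had EGFR as its nearest gene, 34.9 kb away, and a peak in all 4 lists. It is named after its values were seen, and shares by nearest gene were not counted. No site lay in any of 36 genes for ERBB receptors, ligands and adapters, where 0 of 315, by the limit of 3 counts, allows a share of up to 0.952% (1.21% by Wilson's method), against 0.198% of all SKBR3 EGF peaks. The same count of 0 held for 50 genes of protein kinase C and PI3 kinase signalling (background 0.437%) and for 50 luminal transcription factors and nuclear receptors (0.198%). The MAP kinase cascade had 1 site, in a non-coding exon of RASAL2, a Ras GTPase-activating protein (background 0.357%). Other receptor tyrosine kinases and receptor tyrosine phosphatases had 1, in an intron of PTPRA (0.913%).

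Adhesion genes held the largest number among the 6 lists described here, at a share near the background. In cadherins, contactins, neurexins and axon guidance genes lay 6 sites (1.90%), against 2.42% of all SKBR3 EGF peaks. They were 2 in CDH4 and 2 in CDH18, both cadherins, 1 in CTNND2, a delta-catenin, and 1 in NTM, a neuronal adhesion molecule. The CTNND2 site (chr5:11606055-11606352) ranked 378 in SKBR3 EGF, 1950 in SKBR3 vehicle, 85 in BT474 EGF and 493 in BT474 vehicle. The second CDH18 site (chr5:19711458-19711659) held a core and ranked 2368, 378, 1540 and 217.

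The sites were spread over 21 chromosomes, with more on chromosome 7 than on any other. Chromosome 7 held 51 sites (16.2%, 12.5 to 20.7%), against 10.8% of all SKBR3 EGF peaks, 13.8% of SKBR3 vehicle peaks and 7.07% of BT474 EGF peaks. Chromosome 20 held 27 (8.57%), against 6.91%, 7.63% and 2.15%, and had the highest density, of 0.428 sites per Mb. No site lay on chromosome 15 or 22, where 2.46% and 1.55% of the SKBR3 EGF peaks were. These chromosomes held 1.16% and 0.308% of the SKBR3 vehicle peaks, 1 of which a site must overlap. Neighbouring sites were usually far apart, since 5 had another site within 10 kb and 19 within 100 kb.

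**Figure D4:**
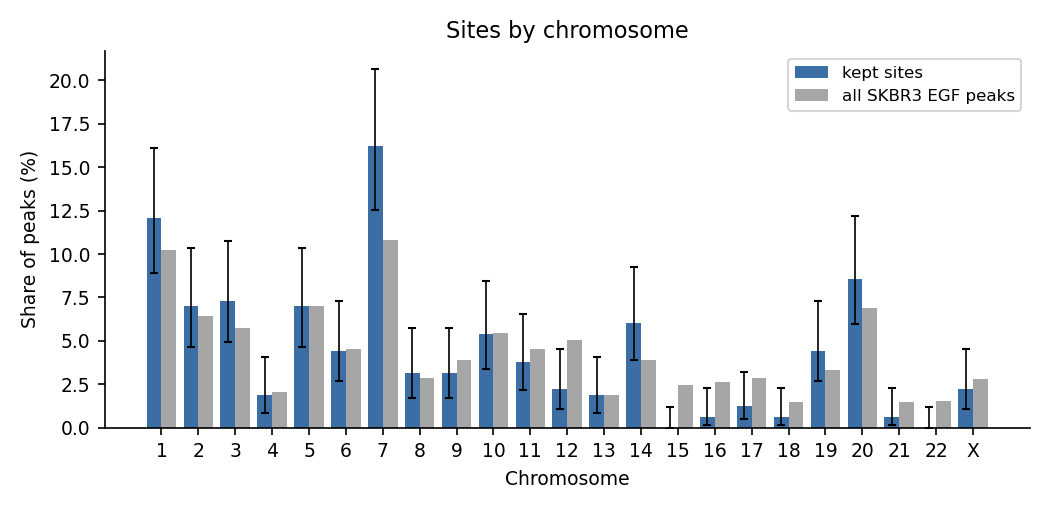
Share of the 315 kept sites on each chromosome in percent (blue, with 95% Wilson intervals) beside the share of all 2520 SKBR3 EGF peaks (grey). Chromosome 7 holds 16.2% of the sites and 10.8% of the peaks, and chromosomes 15 and 22 hold no site.

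H3K4me1 was not used by the rule, and most sites lay outside it. An island overlapped 47 sites (14.9%) in SKBR3 replicate 1 and 55 (17.5%) in replicate 2, where all SKBR3 EGF peaks gave 15% and 15.4%. In BT474 it overlapped 43 sites (13.7%) in each replicate, where all SKBR3 EGF peaks gave 12.8% and 12%. The sites minus the peaks that were not kept came to 1.09 percentage points ± 1.73 (SD, n = 2 libraries) in SKBR3 and 1.41 ± 0.641 (SD, n = 2) in BT474. In SKBR3 the libraries went opposite ways, with the other peaks at 15.1% in replicate 1 and 15.2% in replicate 2, and in BT474 the sites were higher in both. The interval of each share at the sites held the share of the other peaks in every library.

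Both SKBR3 libraries gave a higher share at the sites than both BT474 libraries. This order was not particular to the sites, since all SKBR3 EGF peaks gave 15% and 15.4% in SKBR3 and 12.8% and 12% in BT474. The mean at the sites was 16.2% ± 1.80 (SD, n = 2) in SKBR3 and 13.7% ± 0 (SD, n = 2) in BT474, a difference of 2.54 percentage points. A two-sided exact permutation test gave p = 0.33, which is the smallest value that 2 libraries against 2 allow. Nothing in the labels says that the replicates were separate cultures, so the SD may be technical. The replicates gave the same call, in an island or not, at 287 sites in SKBR3 and 299 in BT474. In SKBR3, 37 sites were in islands of both replicates (11.75%, 8.64 to 15.8%), against 13.06% of all SKBR3 EGF peaks, and 28 of only 1. In BT474, 35 sites were in islands of both (11.1%, 8.10 to 15.1%), against 10.6%, and 16 of only 1. The interval of the sites held the share of all SKBR3 EGF peaks in both lines.

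**Figure D5:**
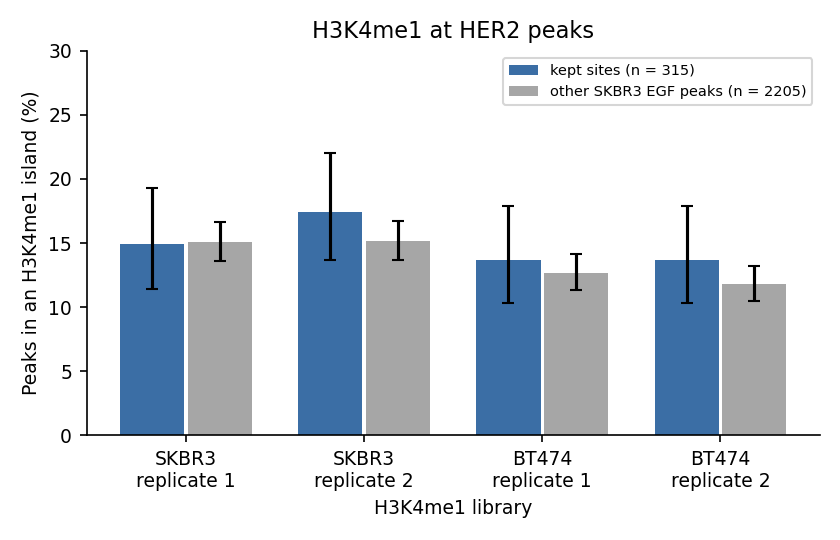
Share of peaks in an H3K4me1 island in percent (y axis) for each of the 4 libraries (x axis), with the 315 kept sites in blue and the other 2205 SKBR3 EGF peaks in grey; bars carry 95% Wilson intervals. All 8 shares lie between 11.8% and 17.5%, and the intervals of sites and other peaks overlap in each library.

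Site by site, 226 of 315 were in no island of any library (71.7%, 66.5 to 76.4%), against 77.4% of all SKBR3 EGF peaks and 78.2% (76.5 to 79.9%) of the peaks that were not kept. An island of all 4 libraries held 16 sites (5.08%, 3.15 to 8.09%), against 6.9% and 7.17% (6.16 to 8.32%). The first share was below that of the peaks that were not kept, with intervals that lay just apart. The 1820 peaks that shared a BT474 EGF peak only gave 77.9% (75.9 to 79.7%) for it, and that interval overlapped the one of the sites. The second share was lower than that of the peaks that were not kept, with intervals that overlapped. A further 18 were in islands of both SKBR3 replicates and neither BT474 replicate, and 15 showed the opposite. In protein-coding genes, the 2 with the highest mean percentile, named after their values were seen, were in introns of SMCO4 and NPR3 for SKBR3 and of NDUFAF5 and USP9X for BT474. An island in any library covered 34.0% of low-complexity sites (25.6 to 43.6%), 25.7% of core sites (16.9 to 37.03%) and 25.4% of the rest (18.9 to 33.1%), so these intervals overlapped.

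The sites in islands of all 4 libraries were led by PELATON. Its island held 99.0 and 94.2 reads per kb in the SKBR3 replicates and 88.4 and 55.2 in those of BT474, where the median island of a library held between 38.9 and 50. An intron of PTPRA (chr20:2964566-2964835), a receptor tyrosine phosphatase that activates SRC family kinases, held 46.5, 47.8, 63.5 and 57.2 reads per kb in the same order and had a core. PRDX6 held 61.8, 61.7, 68.5 and 61.2. These 3 islands were denser than the median island in all 4 libraries.

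The other sites named from this group were less dense than PELATON in every library. An intron of ENAH (chr1:225761244-225761453), which promotes actin assembly, held 43.1, 35.5, 39.5 and 35.3 reads per kb. The promoter of NECTIN2 (chr19:45348290-45348679), a cell adhesion receptor, held 65.0, 37.5, 39.2 and 45.0. Introns of PLA2G2C (chr1:20506277-20506505), of the secreted phospholipase family, and MXRA8 (chr1:1296302-1296635), a cell-surface protein, held 34.1 to 48.2 and 36.8 to 56.7. The intergenic site nearest to ENSG00000287823 (chr6:170343212-170343882) held 42.8 to 62.6, and its island was also denser than the median island in every library. Reads per kb were not scaled for depth and are given library by library for that reason.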

How the data were processed

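ChIP-exo peaks of HER2 in each line and treatment (1 list each) and H3K4me1 ChIP-seq islands of 2 replicates per line were analysed. Samples were grouped by their labels, and 2 inputs without a list were not analysed here. The authors mapped reads to hg19 and called HER2 peaks with MACS and islands with SICER 1.1. The submitters' processing notes name BWA 0.5.9 and MACS 1.4.1, whereas the study's methods name bowtie2 and MACS2. Blacklisted regions were removed by the authors, and the peak score and the read count per island were used as deposited. Peak midpoints stood in for summits.

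Overlaps, features (GENCODE release 44 on GRCh37, whose chromosome lengths are those of hg19), composition and 32-base word copies were computed in Python 3.11.15 with pysam 0.24.0 and pandas 2.3.3, and checked on simulated data. Repeats were read from word copies, since the sequence was not masked. Genes named were the 12 sites with the highest mean score percentile over the lists of the rule, up to 8 in promoters or exons of coding genes, up to 8 in islands of all 4 libraries, those in 6 gene lists (another list is not reported here), and genes with 2 sites. Members and lists were chosen with earlier results of these data known. There were 29 planned and 11 added alternatives. H3K4me1 shares were compared by a two-sided exact permutation test.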

Additional observations from a re-analysis of the deposited data

How the results depend on the processing

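The number of sites was 221 to 295 under the 4 other rules, within 1.5 times of 315. The share also in BT474 vehicle was 62.5% with the 4279 highest-scoring peaks of that list, 85.4% without low-complexity sites and 90.9% with equal numbers of peaks per list. The promoter share was 1.90% for protein-coding genes only and 6.67% with 2 kb upstream. Median GC was 40.8% without low-complexity sites. The low-complexity share was 24.8% at 25 words or fewer, 45.7% at 35 or fewer and 28.8% for midpoints within 100 bp. The core share was 22.2% over the whole peak, 10.16% at the BT474 EGF midpoint and 23.3% without low-complexity sites. With islands of at least 100 reads, the H3K4me1 share was 11.7% in SKBR3 and 9.52% in BT474. Leaving out 1 replicate gave 14.9 to 17.5% in SKBR3 and 13.7% in BT474 either way, and a difference between lines of 1.27 to 3.81 percentage points. With the replicate block, the mean paired difference was 2.54 points. Of 59 values under alternative settings, 42 stayed within the limit set for the value reported and 17 moved. For the number of sites that limit was 1.5 times. Most of the values are counts, shares or medians, which have no direction to change. The difference between lines kept its sign at every setting. Leaving out 1 library or using the replicate block could not change it, because both SKBR3 shares were above both BT474 shares. The settings that could change it gave 2.54 points with midpoints inside the island, 2.22 with islands of at least 100 reads and 1.94 without low-complexity sites. The causes were not tested beyond what each setting changes. Alternatives without low-complexity sites, with other word limits, with midpoints within 100 bp for low complexity, and with equal lists for BT474 vehicle were chosen after seeing the data.

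HER2 lists have no replicates and no read counts, so counting error alone bounds the shares. The 2 libraries per line cannot reach a p below 0.33.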
